A study of Arabidopsis thaliana with 18 samples.

Results

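Roots of the ubc13A mutant were compared with roots of the wild type Col-0 after transfer to medium without iron, gene by gene, on Arabidopsis ATH1 arrays. The comparison took 6 of the 18 arrays of the study: the 3 labelled ubc13A without Fe and the 3 labelled Col-0 without Fe, chosen by genotype and iron supply alone. Both genotypes share the Col-0 background, and the labels describe the mutant as homozygous for the loss of UBC13A. The other 12 arrays cover both genotypes with Fe and a Col-0 line that overexpresses CsUBC13, the cucumber gene, at both supplies. Each of the 6 groups holds 3 arrays that the labels call biological replicates. Seedlings aged 10 days were moved to medium with or without FeEDTA and the roots were collected 3 days later. The labels give neither the mutant allele, the promoter of the overexpression construct, the number of lines, nor the number of roots pooled per array, so each genotype may rest on 1 line.

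UBC13A is a ubiquitin-conjugating enzyme that works with a catalytically inactive partner to join ubiquitin molecules through lysine 63, a kind of chain used in signalling and DNA repair and not chiefly for protein destruction. Arabidopsis has a close second copy, UBC13B. Roots short of iron switch on a set of transcription factors, iron uptake genes and coumarin synthesis, and change the growth of their root hairs. The study asked what part UBC13 takes in that response.

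The array has no probe set for the mutated gene alone. Probe set 264303_s_at is annotated to both UBC13A (symbol UBC35) and UBC13B (symbol UBC36), so it cannot check the loss of UBC13A. Its signal was 4159, 3411.6 and 3273.4 on the Col-0 arrays without Fe. On the ubc13A arrays it was 2477.4, 3075.5 and 2620.7, so every mutant array lay below every Col-0 array. The log2 difference was -0.40 (SE 0.146, unadjusted p = 0.0143, adjusted p = 0.308, limma) and it was -0.40 with Fe as well. A signal from the second gene and a signal from remaining UBC13A transcript cannot be told apart here.

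The deposited signals had a common scale, with a trimmed mean between 500.04 and 500.05 on every array, and medians between 189.9 and 202.35 on the 6 arrays compared. Pearson correlations between arrays were 0.981 to 0.982 among the ubc13A arrays, 0.981 to 0.984 among the Col-0 arrays and 0.978 to 0.981 between the genotypes. The ubc13A arrays stood apart from all others in control probe sets that report no plant messenger RNA. The 25S ribosomal RNA probe set read 11708.6, 6947.3 and 11738.1 on the Col-0 arrays without Fe and 634.3, 1019.4 and 925.9 on the ubc13A arrays, a log2 difference of -3.52 (-3.39 with Fe). Of 12 probe sets for dap and thr, bacterial sequences that serve as spiked polyadenylated RNA on such arrays, 11 were higher on every ubc13A array without Fe, with a median log2 difference of 0.93 and a maximum of 2.21. The ratio of the 5′ to the 3′ dap probe sets was 0.320 to 0.376 in ubc13A and 0.0726 to 0.156 in Col-0, whereas the actin ratio was 0.537 to 0.542 and 0.478 to 0.623. The labels and headers name no batch, and these controls separate the genotypes as the outcome would, so a difference in sample preparation and the genotype cannot be told apart for any gene below.

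Few genes differed between ubc13A and Col-0 without Fe by a margin that passed correction over the whole array. Of 22746 probe sets, 11 were called at an adjusted p under 0.05 (limma on log2(signal + 16), 0.0484% of those tested), 4 higher and 7 lower in the mutant. UGT84A1, AT2G21640 and AT4G19200 were lower, and the chloroplast gene psaB and AT5G62340 were higher. Centring the arrays on their median gave 4 higher and 13 lower, and quantile normalization gave 4 higher and 15 lower. The count was 2 without Col-0 replicate 1, 4 without Col-0 replicate 2, 5 without Col-0 replicate 3, 3 without ubc13A replicate 1, 2 without ubc13A replicate 2 and 10 without ubc13A replicate 3. Only 250558_at and 260813_at were called in all 6 of those fits. With the dimmest 40% of probe sets left out before the fit, 131 of 13648 were called (0.96%), 63 higher and 68 lower. With the 6 arrays fitted alone, none was called by limma, although 2423 had an unadjusted p under 0.05. At that unadjusted level the fit over all arrays had 2524 probe sets, 11.1% of those tested, 1480 higher and 1044 lower. That balance turned with the scaling. Quantile normalization gave 1154 higher and 1278 lower, and median centring gave 1091 higher and 1345 lower, so neither direction can be called the more frequent.

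**Figure D1:**
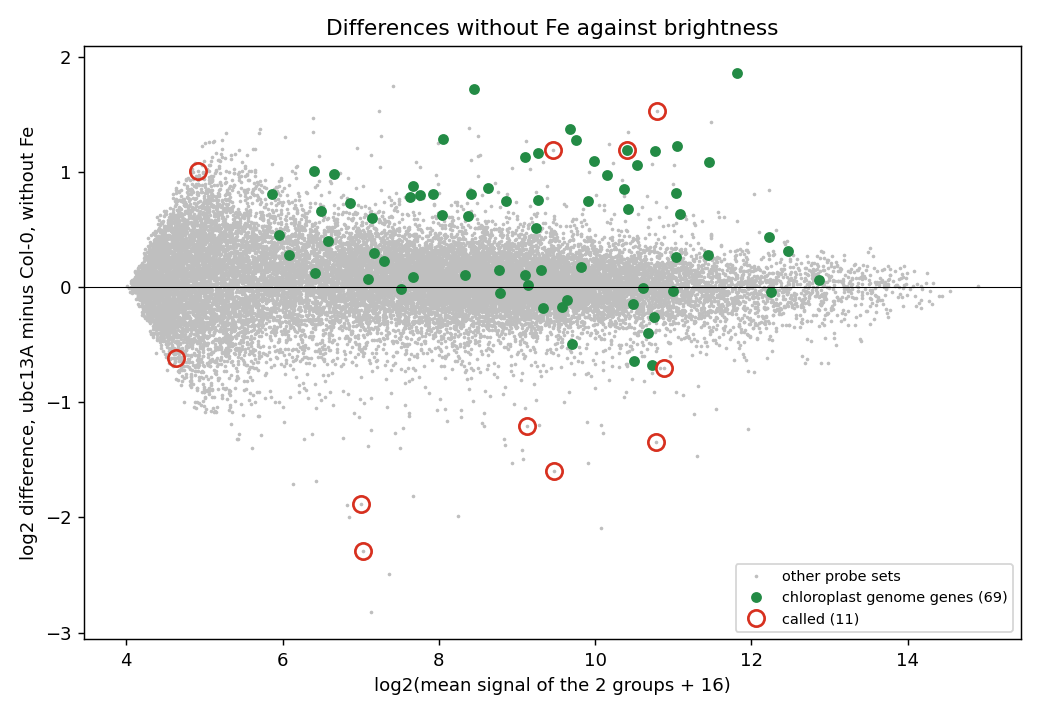
Log2 difference of ubc13A minus Col-0 without Fe (vertical axis) against log2 of the mean signal of both groups plus 16 (horizontal axis) for 22746 probe sets. Red rings mark the 11 called probe sets and green dots the 69 chloroplast genome genes, of which 55 lie above 0.

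UGT84A1 encodes a glucosyltransferase that attaches glucose to hydroxycinnamic acids. Its probe set read 203.5, 210.5 and 143.1 in Col-0 without Fe and 35.4, 36.5 and 42.8 in ubc13A. The groups did not overlap, and the mutant arrays lay close together. In whole roots, fewer cells that express a gene and less RNA per cell cannot be told apart, here and for every gene below. The log2 difference was -1.88 (SE 0.25, adjusted p = 0.0147, limma). With Fe the levels were 228.7, 231.7 and 197.7 against 100.4, 101 and 56.9, again with no overlap and a log2 difference of -1.24 that did not pass (adjusted p = 0.129, limma). The overexpressing line without Fe stayed at the level of Col-0, with 196.2, 232.8 and 173.9, and the log2 difference between ubc13A and that line was -1.99 (adjusted p = 0.00719, limma).

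AT2G21640, a locus on the list of oxidative stress genes, was lower in the mutant at both supplies. Without Fe its signal was 771, 742.6 and 769.9 in Col-0 and 292, 290.5 and 387.5 in ubc13A. The log2 difference was -1.21 (SE 0.187, adjusted p = 0.0292, limma). Both genotypes had higher signals without Fe than with it: the values with Fe were 216.2, 249.2 and 274.2 in Col-0 and 139, 204.9 and 155.1 in ubc13A. In the overexpressing line the transcript rose without Fe by 1.49 on the log2 scale (adjusted p = 0.00011, limma). The log2 difference between genotypes was -0.54 with Fe, and the difference between supplies, -0.67, did not pass the test (unadjusted p = 0.0228, limma). The 3 measured genes of the oxidative stress list had a median log2 difference of -0.09 without Fe, with a range from -1.21 to 0.60.

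AT4G19200 had the smallest log2 difference in size among the called probe sets with a signal above 50. Its signal was 2305, 2235.2 and 2422.1 in Col-0 without Fe and 1426, 1509.7 and 1321.8 in ubc13A, a log2 difference of -0.70 (SE 0.1, adjusted p = 0.0192, limma). With Fe the difference was nearly the same size, -0.64, from 1164.4, 1092.6 and 1223.2 in Col-0 and 686.9, 793.9 and 743.6 in ubc13A (adjusted p = 0.0557, limma). The groups did not overlap at either supply, and the transcript rose without Fe in the overexpressing line by 0.85 on the log2 scale (adjusted p = 6.1e-05, limma).

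AT5G62340 had the largest positive difference among the called probe sets. The signal was 648.6, 1048.1 and 1042.5 in Col-0 without Fe and 2986.3, 2413.8 and 2426.9 in ubc13A, so every mutant array was above the highest Col-0 array. The log2 difference was 1.52 (SE 0.243, adjusted p = 0.0345, limma). With Fe the values were 1785.1, 1889.2 and 2133.1 against 3243.1, 2948.6 and 2616, a log2 difference of 0.60 (unadjusted p = 0.027, limma). The mutant means, 2609 ± 327 without Fe and 2936 ± 314 with Fe (SD, n = 3), lay closer to each other than the Col-0 means of 913 ± 229 and 1936 ± 179. The difference between supplies, 0.93 on the log2 scale, did not pass the test (unadjusted p = 0.0163, adjusted p = 0.863, limma).

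Several called probe sets carry no gene name in the annotation used. Probe set 260813_at had the smallest adjusted p (0.00119, limma) and read 416.6, 434 and 393.2 in Col-0 without Fe and 873.9, 1023.9 and 1008.1 in ubc13A, a log2 difference of 1.19. It was not particular to the mutant, because the overexpressing line without Fe read 916.2, 1028.4 and 979.9, a log2 difference of 1.2 from Col-0 (adjusted p = 0.000526, limma). With Fe the mutant was higher by 1.63 on the log2 scale (adjusted p = 1.78e-05, limma). Col-0 lay below both other lines on every array at this probe set.

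Probe set 250083_at had the largest fall of the called probe sets, with 180.3, 273.7 and 149.7 in Col-0 and 16.1, 37.9 and 30.2 in ubc13A, a log2 difference of -2.29 (SE 0.338, adjusted p = 0.0237, limma). Probe set 250558_at read 1346.4, 1029.6 and 791 in Col-0 and 322.9, 360.3 and 310.9 in ubc13A, a log2 difference of -1.60 (SE 0.192, adjusted p = 0.00632, limma). Neither pair of groups overlapped. The remaining unnamed one, 251827_at, named here after its values were seen, was 2512 ± 593 in Col-0 and 965 ± 134 in ubc13A (SD, n = 3), a log2 difference of -1.35 (adjusted p = 0.0367, limma). With Fe these probe sets differed by -1.60, -0.63 and -0.97, and the overexpressing line without Fe differed from Col-0 by -0.74, -0.18 and -0.23, none of them called.

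The last pair of called probe sets, also named after their values were seen, had signals near the bottom of the scale. AT1G09360 read 14.8, 14.4 and 12.9 in Col-0 and 2.1, 4.8 and 3.9 in ubc13A, a log2 difference of -0.62 (adjusted p = 0.0237, limma). The overexpressing line without Fe read 3.6, 3.1 and 3.6 at AT1G09360, a log2 difference of -0.63 from Col-0 (adjusted p = 0.046, limma), so here too Col-0 stood apart from both other lines. Probe set 264273_s_at, annotated to both AT1G60340 and AT1G60300, read 2.9, 4.5 and 4.7 in Col-0 and 18, 26.7 and 28.8 in ubc13A, a log2 difference of 1.01 (adjusted p = 0.0166, limma). Both were lost when the pseudocount was 64, and both belong to the dimmest 40% that the filtered fit left out. At such signals the array gives little more than a sign.

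**Figure D2:**
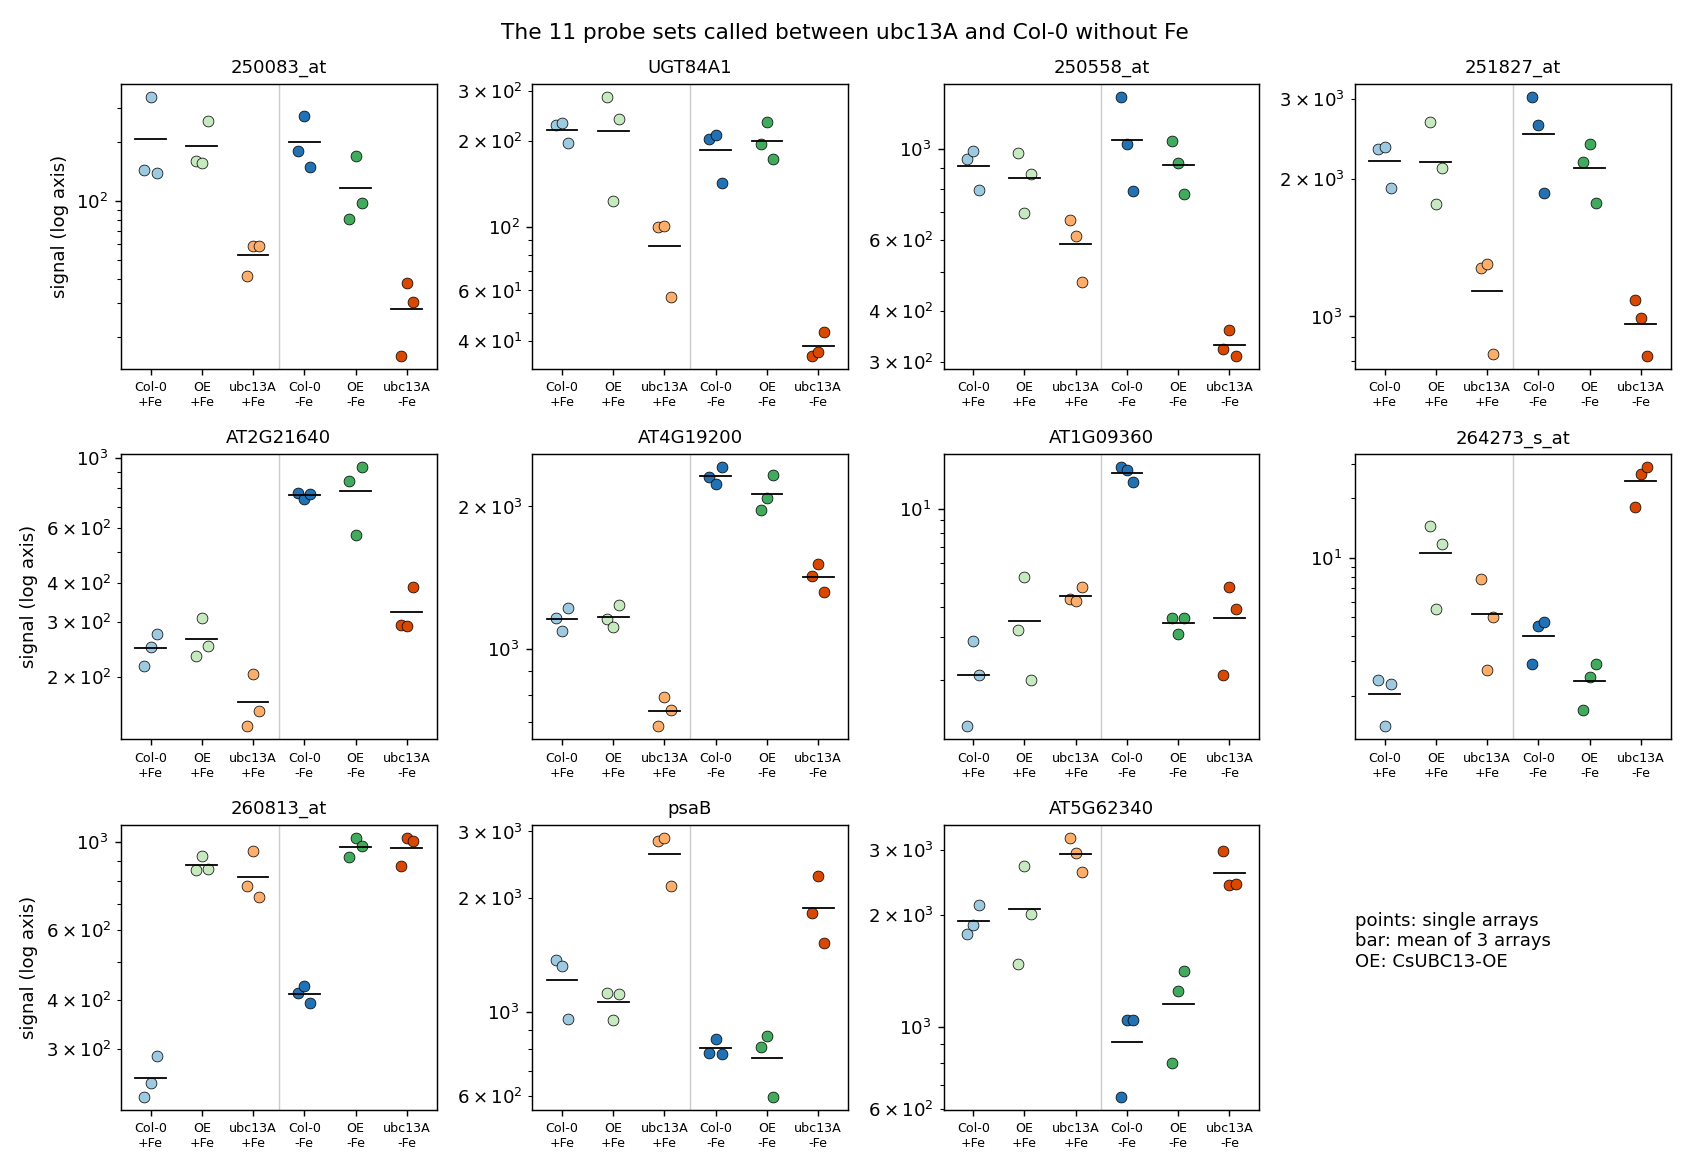
Signal (log axis) of the 11 called probe sets on all 18 arrays, by genotype and iron supply; points are single arrays and bars are means of 3. To the right of the grey line in each panel the 3 ubc13A arrays without Fe lie wholly above or wholly below the 3 Col-0 arrays, and for 260813_at and AT1G09360 the overexpressing line (OE) lies with ubc13A.

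The arrays with Fe are separate arrays of the same genotypes, on which the same differences were read. They are not fully independent of the arrays without Fe. Same-numbered Col-0 arrays at both supplies deviated together (correlations of 0.26, 0.11 and 0.15), and ubc13A arrays less so (0.075, 0.0088 and 0.091). Part of the agreement below can therefore come from variation shared between supplies. Of the 11 called probe sets, 10 had the same sign with Fe, and 9 had the same sign and an unadjusted p under 0.05. AT1G09360 was the exception in sign, with 0.18. With Fe itself, 3 probe sets were called (0.0132%). Of the 2524 probe sets at an unadjusted p under 0.05 without Fe, 74.3% had the same sign with Fe and 19.2% also reached that level in the same direction, against 59.5% and 7.25% of all probe sets. Across all 22746 probe sets, which are not independent and share the controls' split between genotypes at both supplies, Pearson's r between both differences was 0.254. It was 0.42 for the 16001 probe sets with a mean signal of at least 50.

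No probe set passed the test of the difference between supplies (limma, 0 called, 1254 or 5.51% at an unadjusted p under 0.05, smallest adjusted p = 0.161). The median standard error of that difference was 0.261 on the log2 scale, against 0.184 for the genotype difference at 1 supply. Genes that passed without Fe and missed the threshold with Fe were therefore not shown to differ between supplies. The filtered fit and the fit with a mean-variance trend each called 1 probe set, and array weights called 3.

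**Figure D3:**
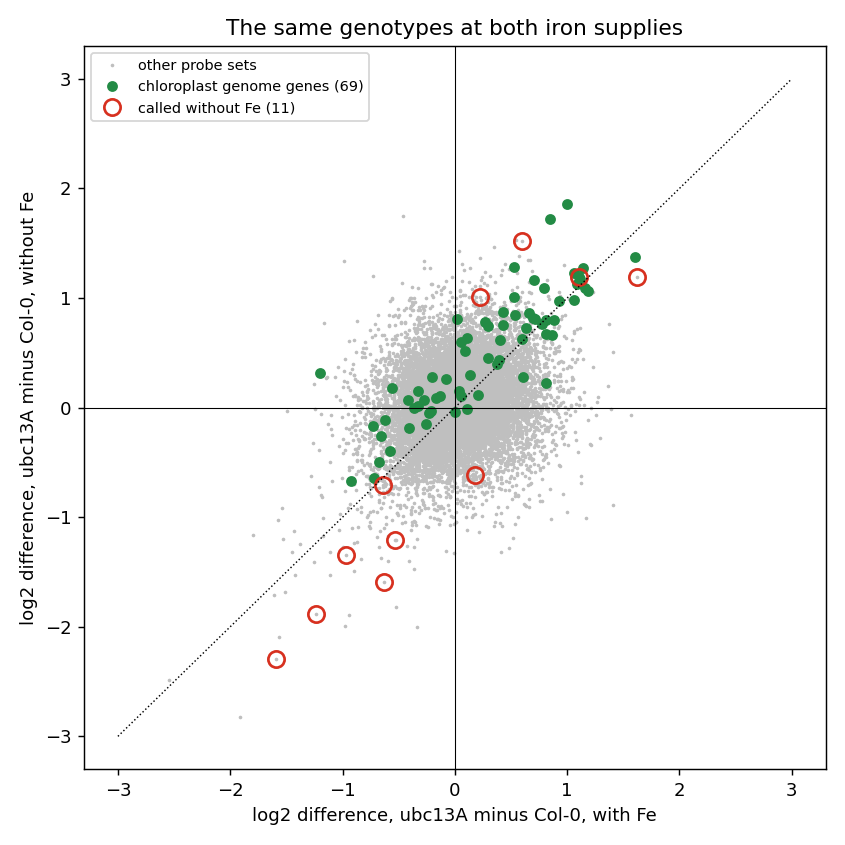
Log2 difference of ubc13A minus Col-0 without Fe (vertical axis) against the same difference with Fe (horizontal axis) for 22746 probe sets; the dotted line marks equality. Of the 11 called probe sets (red rings), 10 lie to the lower left or upper right of the origin, and chloroplast genome genes (green) spread along the line into the upper right.

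Transcripts of the chloroplast genome had mostly positive differences, and they were 14 of the 103 probe sets with a log2 difference of at least 1. Of 69 measured chloroplast genes, 55 had a log2 difference above 0 and 33 (47.8%) were higher at an unadjusted p under 0.05, against 6.51% of all probe sets. Their median log2 difference was 0.60, against 0.05 over 13355 genes measured. Only psaB was called in the fit over all probe sets, and dropping any array but ubc13A replicate 3 removed that call. With the dimmest probe sets left out, a count chosen for this list after seeing the data, 9 were called, all higher (against 0.462% of the probe sets kept): psaA, psaB, psaC, ccsA, rbcL, atpA, atpH, accD and rps19.

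psaB and psaA encode the paired reaction-centre proteins of photosystem I. psaB read 780.6, 852 and 775.1 in Col-0 without Fe and 1828.3, 2284.8 and 1523.5 in ubc13A, a log2 difference of 1.19 (SE 0.185, adjusted p = 0.0292, limma). With Fe the log2 difference was 1.1, from a mean of 1218 ± 227 to 2623 ± 412 (SD, n = 3, adjusted p = 0.0629, limma). psaA read 147.7, 165.5 and 115.9 in Col-0 and 402.7, 768.3 and 411.9 in ubc13A, a log2 difference of 1.72 that missed the threshold (SE 0.311, adjusted p = 0.0633, limma). Neither gene's groups overlapped at either supply.

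The differences were not even over the chloroplast genome. By protein complex, the median log2 difference was 1.19 for photosystem I (5 genes, 4 higher at an unadjusted p under 0.05), 0.81 for the NDH complex of cyclic electron flow (10 genes, 7 higher) and 0.73 for the plastid-encoded RNA polymerase (4 genes, 3 higher). It was 0.70 for ATP synthase (6 genes, 3 higher), 0.31 for photosystem II (15 genes, 5 higher) and 0.26 for ribosomal proteins (15 genes, 4 higher). Cytochrome b6f had a median of 0.08, with 1 of 6 genes higher and 1 lower. The complexes were set side by side as a description, since their genes share transcripts and arrays.

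Single members ranged widely. matK, the chloroplast maturase, had the largest difference, 1.86, but its Col-0 arrays read 3811.4, 735.8 and 1035.8 and the mutant arrays 3953, 5731.8 and 6315.5, so the highest Col-0 array nearly met the lowest mutant array (adjusted p = 0.214, limma). ccsA, needed for cytochrome c assembly, was steadier, with 1156, 845 and 1169.8 against 2526.1, 2615.7 and 2052.5, a log2 difference of 1.18 (adjusted p = 0.0633, limma). rbcL, the large subunit of Rubisco, read 519.7, 415.4 and 393.5 against 862.6, 726 and 688.2, a log2 difference of 0.76 (adjusted p = 0.0673, limma). A pair of genes went the other way at an unadjusted p under 0.05 with no overlap: cemA, an envelope membrane protein, at -0.67 and petA, cytochrome f, at -0.64. Both were also lower with Fe, by -0.92 and -0.72.

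On the arrays with Fe, 26 of the chloroplast genes were higher and 7 lower at an unadjusted p under 0.05 (against 5.87% and 3.97% of all probe sets), 25 of the 26 being higher without Fe too; the median was 0.29. The test between supplies reached that unadjusted level for 3 of the 69. Against the overexpressing line without Fe the median was 0.66 and psaB, ccsA and rbcL were called (adjusted p = 0.0158, 0.0158 and 0.0413, limma), while the overexpressing line and Col-0 differed by a median of -0.01. These comparisons share arrays and are given side by side only.

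Summed over the 69 genes, the level did not separate the groups cleanly. The mean of log2(signal + 16) was 9.23, 8.62 and 8.77 on the Col-0 arrays without Fe and 9.27, 9.50 and 9.38 on the ubc13A arrays, and Col-0 replicate 1 lay close to the lowest mutant array. The summed signal of that Col-0 array, 82004.9, exceeded the 80303 of ubc13A replicate 1. Nuclear genes for photosynthesis did not follow: all 5 measured members of that list, among them PSAE-1 of photosystem I at -0.40 and RCA, the Rubisco activase, at -0.16, were below 0 with a median of -0.16, and none had an unadjusted p under 0.05. The summed signal of these green-tissue markers was 2939 to 3209.4 in Col-0 and 2145.9 to 2923.2 in ubc13A without Fe, with no marker at 0. The 15 mitochondrial genome genes measured had a median of 0.25, with nad4 (1.08) and ccb382 (1.0) higher and nad2 (-1.07, at dim signals) lower at that level. The chloroplast transcripts differed on the same arrays as the 25S ribosomal RNA and the spiked controls, and the part of sample preparation in them was not tested.

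**Figure D4:**
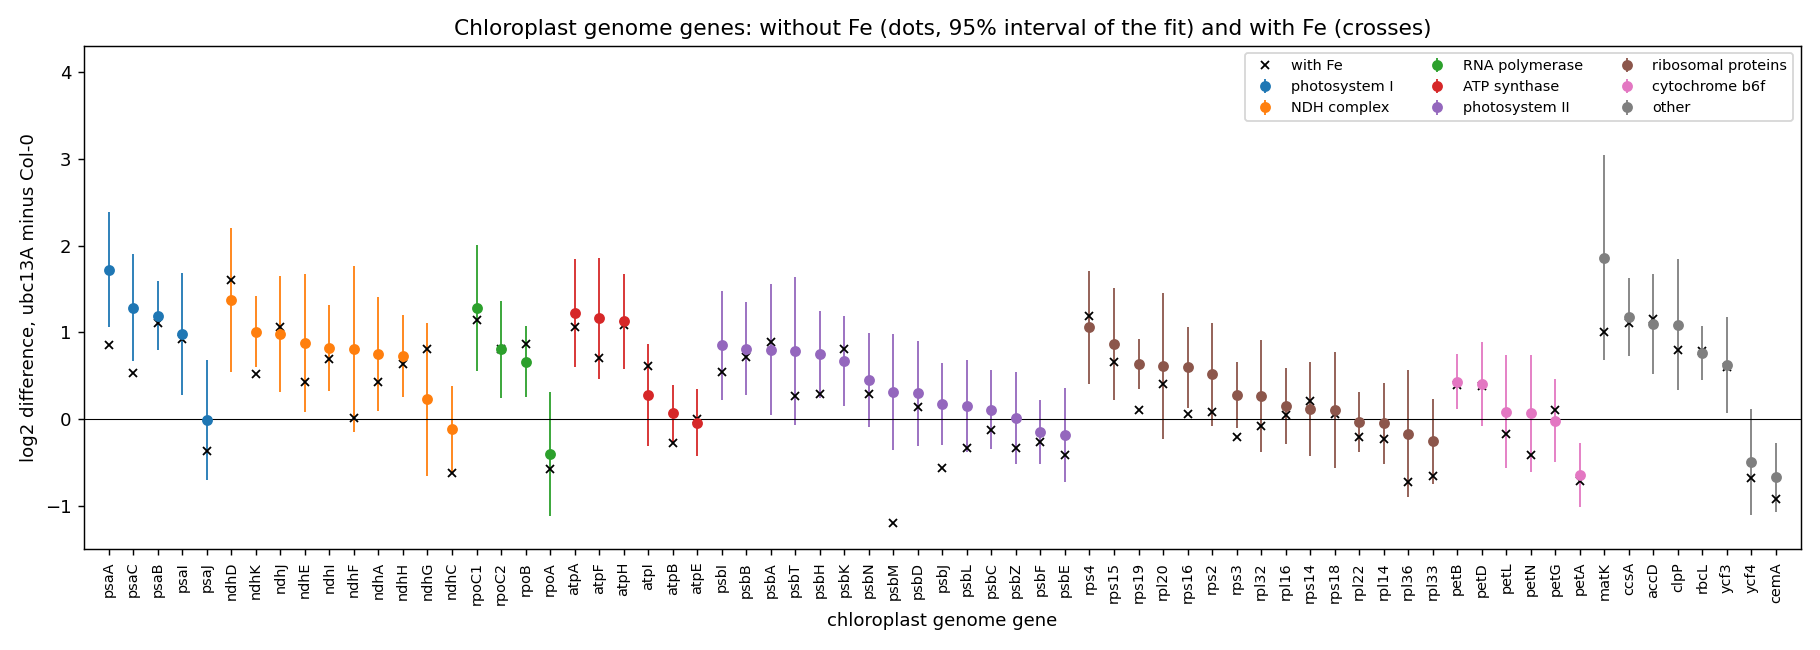
Log2 difference of ubc13A minus Col-0 for the 69 chloroplast genome genes, ordered by protein complex (colour). Dots with bars are the values without Fe and the 95% interval of the fit, and crosses are the values with Fe; photosystem I has a median of 1.19 and cytochrome b6f of 0.08.

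Flavonoid and anthocyanin genes lay at the opposite end. Anthocyanins are purple flavonoid pigments that plants make under stress and decorate with sugars and acids. The list holds 12 genes, of which only 3 were measured. All 3 were lower in ubc13A without overlap, at an unadjusted p under 0.05 (limma), and none passed the adjusted test. Of all probe sets, 17.7% did not overlap in either direction and 4.59% were lower at that unadjusted level. The median log2 difference of the 3 genes was -1.40. DFR, the dihydroflavonol reductase that commits flavonoids to anthocyanin, read 144.7, 256.1 and 275.3 in Col-0 and 4.5, 9 and 54 in ubc13A, the largest difference of any gene measured at -2.82 (SE 0.519, adjusted p = 0.0633, limma). With the dimmest probe sets left out its adjusted p was 0.0122.

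AT5MAT, which adds malonate to anthocyanins, read 41.3, 78.3 and 45.1 in Col-0 and 11.2, 7.4 and 12.3 in ubc13A, a log2 difference of -1.40 (adjusted p = 0.0968, limma). UF3GT, which adds xylose to them, read 76.5, 145.6 and 132.9 against 67.1, 52.3 and 30.6, a log2 difference of -1.02 (adjusted p = 0.208, limma). With Fe the values for DFR, AT5MAT and UF3GT were -1.91, -0.41 and -1.57, and the groups did not overlap for DFR and UF3GT. The overexpressing line without Fe was also below Col-0, by -1.14, -0.62 and -0.52, with an adjusted p of 1 for each (limma).

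Among genes that conjugate small molecules, those of glycosyltransferases and glutathione transferases were counted. Of 47 UDP-glycosyltransferase genes measured, 30 were below 0 and 6 lower at an unadjusted p under 0.05 (12.8%, against 4.59% of all probe sets), with 1 higher and a median of -0.09. UGT84A1 was the called member, and UGT78D2, the flavonoid 3-O-glucosyltransferase, differed by -0.88 (1158.6, 1611.3 and 1173 against 784.3, 739.8 and 591.7, adjusted p = 0.216, limma).

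Of 13 glutathione transferase genes, whose products detoxify reactive compounds, 3 were lower and 1 higher at an unadjusted p under 0.05 (23.1% and 7.69%, against 4.59% and 6.51% of all probe sets), and none was called. GSTU25 read 5769.3, 2486.5 and 3034.7 in Col-0 and 1288.9, 1188.2 and 1307.5 in ubc13A, a log2 difference of -1.47 (SE 0.505, adjusted p = 0.278, limma). GSTU22 had a similar pattern over the arrays, with 3225, 1668 and 1939.2 against 1257.8, 1143.9 and 1060 (-0.92). In both genes Col-0 replicate 1 was far above the other Col-0 arrays, and the mutant arrays were even. For GSTU25, replicate 1 was also the highest array in Col-0 with Fe (2930.1, 792.2 and 1106.6). The same held in the overexpressing line without Fe (5810.1, 2194.1 and 3603.7) and with Fe (2693.7, 831.5 and 842.9). GSTU26 was higher by 0.50.

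COR15A, a cold-induced chloroplast protein that protects membranes during freezing, read 125.8, 237.5 and 125.8 in Col-0 and 22, 33.6 and 37.3 in ubc13A, a log2 difference of -1.89 (SE 0.343, adjusted p = 0.0633, limma). The groups did not overlap, and with Fe the difference was -0.94. It was called under quantile normalization or median centring of the arrays. LTI30, a dehydrin, differed by -0.45, and COR47, another dehydrin, by -0.002, so the 3 measured genes of the cold list spanned nearly no difference to one of the largest.

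Among the regulators of the iron deficiency response no member was called. Of 10 measured, 1 had an unadjusted p under 0.05; their median log2 difference was -0.10, with 6 below 0. The groups did not overlap for 6 of the 10, 4 lower and 2 higher in ubc13A, against 17.7% of all probe sets. The summed signal of the 10 was 18003.7 to 18877.7 on the Col-0 arrays and 16898 to 16994.6 on the ubc13A arrays. Their mean level on the log2 scale did not separate the groups. It was 10.262, 10.421 and 10.353 on the Col-0 arrays without Fe and 10.277, 10.205 and 10.213 on the ubc13A arrays. PYE, a transcription factor that restrains iron storage and transport genes, read 793.5, 652.4 and 607.8 in Col-0 and 512.6, 453.4 and 541.3 in ubc13A, a log2 difference of -0.43 (unadjusted p = 0.0293, adjusted p = 0.384, limma). AT1G47400 read 2910.1, 3300.7 and 3249.8 against 1842.4, 2511.6 and 2475.7, a log2 difference of -0.48 (95% interval -1.03 to 0.07). The groups overlapped for neither gene.

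BHLH101, a transcription factor of iron uptake, varied too much to place, at 285, 690.3 and 779.2 in Col-0 and 520.5, 362.5 and 298.4 in ubc13A (log2 difference -0.47, 95% interval -1.36 to 0.42). With Fe it read no more than 13.1 in Col-0 and 36.7 in ubc13A, so its signal without Fe was many times higher in both genotypes. bHLH115 and ILR3, factors that act above these, differed by -0.20 and 0.09. bHLH104, bHLH121 and bHLH34 lay between -0.02 and 0.19.

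Coumarins are phenolic compounds that roots secrete to mobilise iron. Of 4 measured genes of that pathway none had an unadjusted p under 0.05, with log2 differences from -0.22 to 0.14. F6'H1 (AT3G13610), the hydroxylase that opens the branch to scopoletin, was among the brightest, with means of 18936 in Col-0 and 17150 in ubc13A and a log2 difference of -0.14. BGLU42, a glucosidase that releases coumarins, differed by 0.04, a sign that turned under median centring. In the overexpressing line these genes rose without Fe by 1.2 to 7.92 on the log2 scale.

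The metal transporter ZIP9 differed by 0.25 (95% interval -0.14 to 0.65) and AT3G58060, on the list of iron transporters, by -0.38 (-0.82 to 0.06). The stromal ascorbate peroxidase SAPX, which holds haem, read 755.4, 533.8 and 391.8 in Col-0 and 704.4, 866.3 and 920.7 in ubc13A, a log2 difference of 0.59 with overlapping groups (unadjusted p = 0.035, limma). With Fe it was -0.26. These 3 genes stood in lists with under 3 measured members, so no list is described from them.

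Root hair genes, which also mark the labelled tissue, had a summed signal of 2691.2 to 3043.1 in Col-0 and 2572.8 to 2990.5 in ubc13A without Fe, and gave no called difference. Of 5 measured, EXPA18, an expansin that loosens the wall of growing hairs, differed by -0.49 (972.5, 684.7 and 807.3 against 700.3, 576.9 and 465.9, unadjusted p = 0.027, limma) and by -0.46 with Fe. EXPA7, its close relative in root hairs, differed by -0.07, XTH26 by 0.44 and SCN1, which keeps hairs to 1 site per cell, by 0.11. Of all 18 expansins, 1 was higher and 2 lower at an unadjusted p under 0.05. XTH16, a xyloglucan endotransglucosylase of the cell wall, was the largest of its 9-gene family at 0.64 (adjusted p = 0.142, limma).

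None of 12 measured genes of other ubiquitin-conjugating enzymes was called by limma, and 1 was higher and 1 lower at an unadjusted p under 0.05. Their median log2 difference was -0.15, and 10 were below 0, against 5601 of the 13355 genes measured. UBC29 read 2444.3, 2093.1 and 2157.8 in Col-0 and 1548.2, 1710 and 1868.9 in ubc13A, a log2 difference of -0.38 (adjusted p = 0.237, limma). UBC37 was the largest in the other direction at 0.44. Median log2 differences were also small for 7 auxin genes, at 0.14 with a range from -0.52 to 0.58 (GH3.1). They were 0.03 for 3 cell division genes, -0.01 for 22 cytochrome P450 genes and -0.07 for 6 WRKY factors. None of these genes was called.

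The wider iron response was read from probe sets picked in the overexpressing line, whose arrays enter neither genotype's mean: 984 changed without Fe in that line (4.33%, limma, adjusted p under 0.05), 504 raised and 480 lowered. In ubc13A against Col-0 without Fe, 104 of the 504 raised probe sets were lower and 10 higher at an unadjusted p under 0.05, that is 20.6% lower against 4.59% of all probe sets. Of the 480 lowered ones, 90 were higher and 36 lower, that is 18.8% higher against 6.51%. The median log2 differences were small, -0.12 for the raised and 0.09 for the lowered, beside 0.04 over all probe sets. Same-numbered arrays of the overexpressing line and Col-0 without Fe deviated together (correlations of 0.3, 0.2 and 0.11), so the choice of these sets is not free of variation shared with Col-0. The choice also used the same spread estimate per probe set as the genotype test, which favours probe sets of low spread. All probe sets are therefore not a like background for these shares. The 36 lower ones of the lowered set were 7.5%, also above 4.59%.

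By array, the mean of log2(signal + 16) over the raised set was 9.80, 9.79 and 9.78 in Col-0 without Fe and 9.68, 9.63 and 9.60 in ubc13A. With Fe it was 8.61, 8.58 and 8.52 in Col-0 and 8.55, 8.52 and 8.50 in ubc13A, so the set stood far higher without Fe in both genotypes. Over the lowered set the means without Fe were 8.22, 8.29 and 8.23 in Col-0 and 8.31, 8.38 and 8.36 in ubc13A. The groups without Fe did not overlap in either set. With Fe the lowered set was lower in ubc13A, at 9.01, 8.95 and 8.93 against 9.06, 9.07 and 9.07 in Col-0, and the median log2 difference between supplies was 0.17 for it and -0.08 for the raised set, beside 0.00 over all probe sets.

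**Figure D5:**
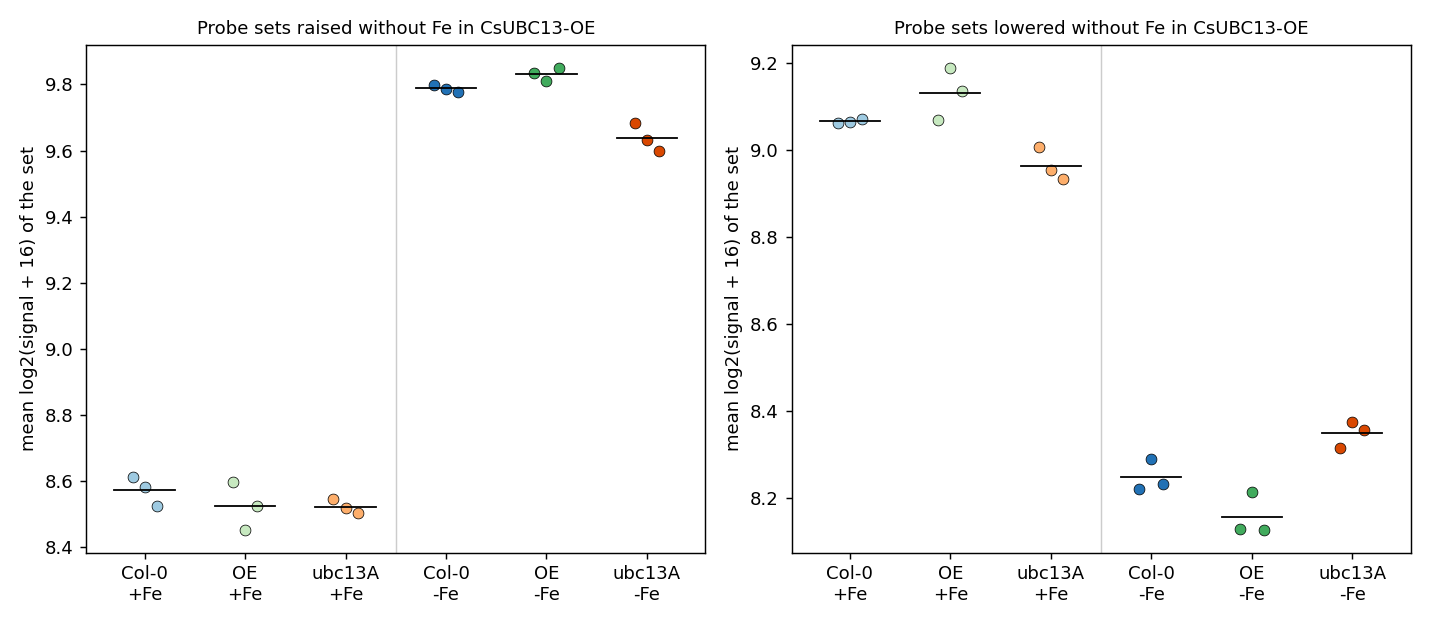
Mean of log2(signal + 16) over the 504 probe sets raised (left) and the 480 lowered (right) without Fe in the overexpressing line (OE), for each of the 18 arrays; points are arrays and bars are means of 3. Without Fe, ubc13A lies below Col-0 in the left panel (9.60 to 9.68 against 9.78 to 9.80) and above it in the right panel (8.31 to 8.38 against 8.22 to 8.29).

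Members of these sets with large differences, named after their values were seen, show what lies behind the means. Among the raised, NDB4, an external NAD(P)H dehydrogenase of mitochondria, read 308.2, 181.8 and 248.6 in Col-0 without Fe and 84.4, 94.1 and 103.9 in ubc13A, a log2 difference of -1.23 (unadjusted p = 0.00396, limma). AT3G02480 read 244.3, 291.9 and 362.9 against 97.2, 44.6 and 85.3 (-1.82), and AT1G12030 read 230.2, 414.7 and 413.3 against 115.1, 176 and 183.7 (-1.06). All of these were higher without Fe than with it in Col-0 on every array.

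Among the lowered, AT2G36885 read 89.8, 109 and 81.3 in Col-0 without Fe and 185.2, 145.4 and 213.1 in ubc13A, a log2 difference of 0.84 (unadjusted p = 0.00185, limma). With Fe the order was turned, at 608.7, 684.6 and 559.6 in Col-0 and 401.8, 401.8 and 329 in ubc13A, so its range between supplies was narrower in the mutant, though no probe set passed the test of that difference. AT1G74490 read 78.3, 47.8 and 91.9 against 164, 204.8 and 161.3 without Fe (1.15) and differed by 0.12 with Fe. PDF2.1, a small defensin-like protein, read 171.5, 303.7 and 218.6 against 604.1, 434.8 and 355.5 (0.96) and differed by 0.65 with Fe.

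Set beside the same mutant arrays, the overexpressing line without Fe gave 11 called probe sets (0.0484%), and the overexpressing line against Col-0 gave 3 (0.0132%). The mutant's log2 differences from that line were -1.99 for UGT84A1, -1.22 for AT2G21640, 1.29 for psaB and 1.2 for AT5G62340, beside -1.88, -1.21, 1.19 and 1.52 from Col-0. These pairs share the ubc13A arrays. The overexpressing line itself differed from Col-0 by 0.11, 0.01, -0.10 and 0.33 for the same genes, none called.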

How the data were processed

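Root RNA was hybridised to 1-colour Affymetrix ATH1 arrays. The authors deposited a linear signal intensity per probe set; per the labels' protocols total RNA was labelled by in vitro transcription, and no source used here names the summarisation software. The trimmed means show that each array had been scaled to a common level. Groups come from the sample labels. Of 22810 probe sets, 64 controls were left out and 22746 tested; 13513 name 1 gene, 503 several and 8730 none. 13436 matched RefSeq (TAIR10.1), used for names only.

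Values were analysed as log2(signal + 16), which understates changes of dim probe sets. limma 3.58.1 (R 4.3.3) fitted 6 group means over all 18 arrays (12 residual degrees of freedom) with Benjamini-Hochberg adjustment, and was tested on simulated data. Called means an adjusted p under 0.05. Figures used matplotlib. Genes named were up to 15 per direction among called probe sets naming 1 gene with non-overlapping groups and a mean of at least 50, up to 4 per gene list and the UBC35/UBC36 probe set, besides those stated as chosen later. Members and lists were chosen with earlier results of these data known, and the patterns for organelle genes were adapted to the annotation's names. A gene's level was its single-gene probe set. Replicate numbers did not pair ubc13A with Col-0 arrays (correlations of deviations -0.077, 0.02 and -0.023). The number of arrays limits precision, and p-values reflect spread among arrays, which may be partly technical. Alternatives covered scaling, pseudocount, a filter on dim probe sets, variance models, the arrays fitted and single arrays left out.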

Additional observations from a re-analysis of the deposited data

Results flagged for a closer look

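In 3 of the genes named here the genotype difference pointed in opposite directions at the 2 supplies with no overlap at either, and none passed the test of that difference. AT1G09360 differed by -0.79 between supplies on the log2 scale (without Fe minus with Fe, adjusted p = 0.161, limma), at signals of at most 14.8. AT1G23050 differed by 1.92 (adjusted p = 0.702, limma), from 8.6, 24.9 and 9.4 in Col-0 and 53.6, 74.6 and 32.8 in ubc13A without Fe to 53.9, 48.6 and 50.4 and 34.7, 32.9 and 10.8 with Fe. AT2G36885, whose signals are given above, differed by 1.53 (adjusted p = 0.379, limma).

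Control probe sets, which entered no comparison, were at least 2-fold higher on the ubc13A arrays without Fe and did not overlap Col-0 in 6 cases. The log2 differences were 1.93 and 1.02 for the 5′ and middle dap probe sets of the first kind, 2.21 and 1.08 for those of the second kind, 1.5 for the 5′ thr probe set and 1.01 for the 5′ phe probe set. The 5′ dap probe set of the second kind read 65.2, 26.6 and 115.4 in Col-0 and 332.8, 269.9 and 436.8 in ubc13A. Their part in the gene results was not tested.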

How the results depend on the processing

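The number of probe sets called between ubc13A and Col-0 without Fe (11, with 4 higher and 7 lower) depended on the setting. It was 19 after quantile normalization (15 lower) and 17 after median centring (13 lower), and the 11 stayed called in both. A pseudocount of 1 gave 7 (2 higher) and one of 64 gave 76 (26 higher, 50 lower). Leaving out the dimmest 40% gave 131 (63 higher, 68 lower), a mean-variance trend with robust moderation 106 (43 higher, 63 lower), and array weights 72 (32 higher, 40 lower); 9, 9 and 11 of the 11 were among them, as were 9 with the pseudocount of 64. Testing against a 1.2-fold change gave 3 (1 higher, 2 lower). Fitting the 6 arrays alone gave 0 without a replicate block (2423 at an unadjusted p under 0.05, limma) and 0 with the replicate block (2045), which leave fewer degrees of freedom. Leaving out 1 array gave 2 to 10 (higher 1 to 4, lower 1 to 6).

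With Fe the count of 3 became 11 (quantile), 10 (median centring), 6 and 19 (pseudocounts 1 and 64), 38 (dim probe sets out), 36 (trend), 11 (array weights) and 0 with only those arrays, with or without the replicate block (1908 and 1989 at an unadjusted p under 0.05, limma); leaving out 1 array gave 2 to 7. Against the overexpressing line 11 became 39, 52, 58, 82, 2 and 2 (pseudocount 64, dim out, trend, weights, 1.2-fold, arrays compared only), 0 with the replicate block (2026 at an unadjusted p under 0.05) and 2 to 12 leaving out 1 array. The overexpressing line against Col-0, where replicate numbers do pair the arrays, gave 5 with weights and 0 with the block (1375 at an unadjusted p under 0.05). The test between supplies gave 1, 1 and 3 (dim out, trend, weights). The causes of these shifts were not tested.

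Of the values for single genes and gene lists, 1631 stayed the same. For single genes this means the same direction and side of the threshold, and for counts of members a similar count. Of the others, 86 fell short of the threshold, 57 newly passed, 20 turned sign and 27 were counts that moved. The counts of list members called with dim probe sets left out or with the trend were chosen after seeing the data. With all arrays kept, signs turned for 3 single genes near 0: BGLU42 (-0.00218 median centring, -0.038 weights), PRL (-0.014 median centring) and COR47 (0.020 quantile). Median centring also turned the list medians of the xyloglucan endotransglucosylase genes (0.014 to -0.027) and the cell division genes (0.028 to -0.014). Leaving out 1 array gave BGLU42 -0.10 to 0.11, LBD29 -0.95 to 0.032, PRL -0.022 to 0.10, CCS -0.18 to 0.041, COR47 -0.20 to 0.12, RCA -0.29 to 0.017, PORB -0.36 to 0.084 and WRKY42 -0.19 to 0.39.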
